A study of Mus musculus with 2 samples.

Results

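The expression of 9 genes of blood vessel growth was examined in whole mouse omentum after diphtheria toxin (DT). They were the VEGF ligand genes Vegfa, Vegfb and Pgf, the angiopoietin genes Angpt1 and Angpt2, the co-receptor gene Nrp1, and the adrenomedullin axis of Adm, Ramp2 and Calcrl. The genes were chosen by symbol for their known function, with earlier results of these data known. All 9 were among the 24346 gene symbols listed for each library. All 9 also had a mean FPKM of at least 1, the minimum met by 13127 genes, which are called the genes compared below. FPKM is the number of sequenced fragments scaled to transcript length and to library size.

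The omentum is a fatty sheet of the abdomen with milky spots, which are clusters of immune and stromal cells around blood vessels. RNA-seq was performed on the entire tissue of wild-type (WT) and Postn-DTR mice, with 1 library per genotype, 5 days after DT. Postn-DTR mice carried a receptor for DT in the first coding exon of 1 Postn copy (Postn Dtr/+), so that cells with an active Postn promoter became sensitive to the toxin. The cells aimed at were Aldh1a2+ fibroblastic reticular cells (FRCs) of the milky spots, a population called P1, but the Postn promoter is also used by other fibroblast-like cells. WT mice received DT as well, and no library without DT was analysed here. The age of the mice and the number of mice behind each library were not given in the sources used here.

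VEGF ligands bind receptor kinases on endothelial cells. VEGFA acts mainly through KDR with NRP1 as a co-receptor, while VEGFB and PGF bind FLT1. Angiopoietin 1, made by pericytes and other mesenchymal cells, activates the receptor TEK (TIE2) and keeps vessels quiescent, whereas angiopoietin 2, released by endothelial cells, often opposes it and is linked to vessel remodelling. Adrenomedullin is a small peptide that widens vessels and tightens the endothelial barrier, and its receptor is the protein CALCRL joined to the accessory protein RAMP2.

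Of the 9 genes, Pgf and Angpt2 were at least 2-fold higher in the Postn-DTR library, and none was at least 2-fold lower. Among all genes compared, 3.88% were at least 2-fold higher and 3.12% at least 2-fold lower. These calls used the difference in log2(FPKM + 1) of Postn-DTR from WT, called the change below. A pseudocount of 1 makes the change of weakly expressed genes smaller than the fold in FPKM. The other 7 genes all had a lower FPKM in the Postn-DTR library, with changes from -0.86 for Vegfb to -0.11 for Adm. The median change of the 9 genes was -0.53, whereas that of all genes compared was 0.02, with 90% of those genes between -0.79 and 0.87. With 1 library per genotype there was no spread between replicates, so no difference was tested and none has a replicate check.

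The libraries differed in other ways that touch every value. Both had similar estimated depths, of about 23200000 fragments in WT and 24000000 in Postn-DTR. Total FPKM was 542190 in WT against 671882 in Postn-DTR. Transcripts of pancreatic acinar cells, which make digestive enzymes and do not belong to the omentum, had a summed FPKM of 13156 in WT against 21.8 in Postn-DTR, and all 30 of the acinar genes compared were at least 2-fold lower in Postn-DTR. When the acinar genes were left out and both totals were made equal, the median change of all genes moved to -0.28 and that of the 9 genes to -0.86. The acinar sum was small beside the WT total, and leaving it out widens the gap between the totals. The shift thus came mainly from making the totals equal. Under that scaling the calls among all genes shifted from 410 lower and 509 higher to 732 lower and 293 higher. Leaving out the acinar genes does not take out other transcripts that may have come with them. The part of such transcripts in the levels of the 9 genes was not tested. The targeted gene itself, Postn, had an FPKM of 58.3 in WT against 16.2 in Postn-DTR, so the lower level was in the library labelled as DTR. The receptor sits in that gene, so the altered Postn copy and a loss of cells cannot be told apart in its level.

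In the WT library the order of the levels, from high to low, was Ramp2, Vegfa, Vegfb, Nrp1, Adm, Angpt2, Calcrl, Angpt1 and Pgf. The FPKM ran from 85.8 for Ramp2 to 1.01 for Pgf. The first 4 genes kept their places in the Postn-DTR library, where Angpt2 stood above Adm, and Pgf above Calcrl and Angpt1. Within a library, neighbours such as Ramp2 and Vegfa cannot be called different, since no spread between samples was measured and FPKM depends on the transcript length that was assumed.

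**Figure D1:**
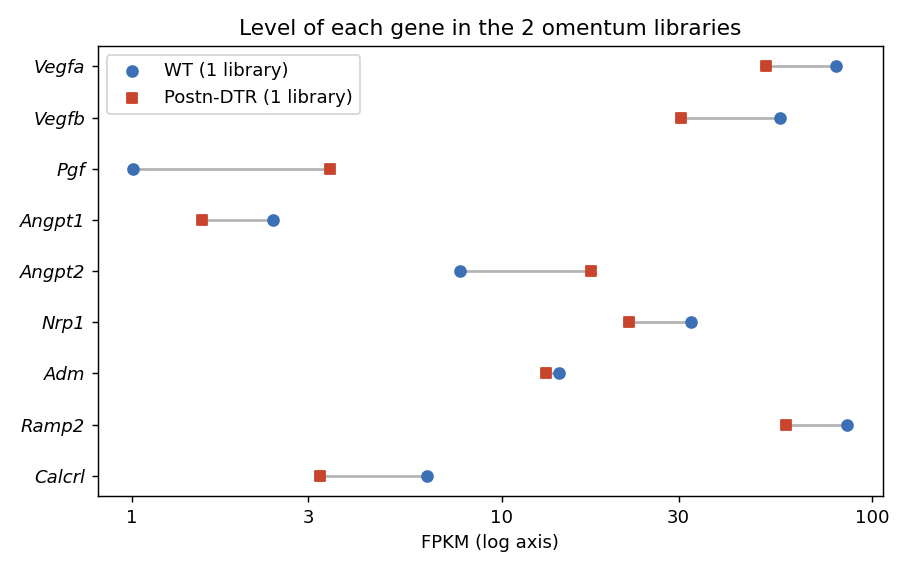
FPKM of the 9 genes (log axis) in the WT library (blue circles) and the Postn-DTR library (red squares), with 1 library per genotype and so no error bars. Postn-DTR lies to the left of WT for 7 genes, and to the right for Pgf (1.01 and 3.43) and Angpt2 (7.68 and 17.4).

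Promoter sequence is shown for Vegfa, Vegfb and Adm, because Vegfa and Vegfb were the most abundant VEGF ligand genes and were lower together, while Adm was close to its WT level in the FPKM as deposited. Each is the 250 bases before a RefSeq transcript start on GRCm38.p6, read 5′ to 3′ on the strand of the gene. Of the 9 genes, 6 had such a window in the RefSeq table used. The letters ACGTG and GCGTG, the core of the element bound by hypoxia-inducible factors, and TGANTCA, the AP-1 motif, were searched on both strands, and every match is in capitals (CACGC is GCGTG on the opposite strand).
Vegfa (chr17:46032378-46032627, minus strand): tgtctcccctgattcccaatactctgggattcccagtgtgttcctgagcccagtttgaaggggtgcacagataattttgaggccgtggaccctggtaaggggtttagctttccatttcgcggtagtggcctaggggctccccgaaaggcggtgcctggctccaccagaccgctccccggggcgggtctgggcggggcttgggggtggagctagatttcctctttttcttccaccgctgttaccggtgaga
Vegfb (chr19:6987652-6987901, minus strand): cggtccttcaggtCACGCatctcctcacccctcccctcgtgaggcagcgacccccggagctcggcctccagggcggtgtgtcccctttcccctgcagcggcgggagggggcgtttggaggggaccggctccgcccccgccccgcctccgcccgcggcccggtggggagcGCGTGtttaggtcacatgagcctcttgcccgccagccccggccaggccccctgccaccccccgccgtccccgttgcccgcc
Adm (chr7:110627407-110627656, plus strand): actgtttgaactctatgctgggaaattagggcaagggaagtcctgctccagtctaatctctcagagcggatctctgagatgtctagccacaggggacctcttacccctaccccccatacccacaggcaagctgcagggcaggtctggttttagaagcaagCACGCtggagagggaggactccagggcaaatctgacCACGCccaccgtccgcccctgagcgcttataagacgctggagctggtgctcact

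The Vegfa window printed held none of the 3 motifs, whereas a window before an internal Vegfa start, which overlaps exons and is not printed, held GCGTG at -218 and ACGTG at -211. Positions are those of the first base of a match, with -1 as the last base before the start. GCGTG stood at -237 and -81 in the Vegfb window, and at -90 and -54 in the Adm window. Of the 8 windows of the 6 genes, 5 held ACGTG or GCGTG and none held the AP-1 motif. Among 32851 mouse promoter windows of the same length, 28.2% held GCGTG, 16.6% held ACGTG, 38.6% held at least 1 of the pair, and 6.75% held the AP-1 motif. A match is a description of these letters only, and the lack of one says nothing about elements farther from the start, such as those known for Vegfa.

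Vegfa and Vegfb, the main VEGF ligand genes of this tissue, were both lower in the Postn-DTR library, whereas the much weaker Pgf was higher. Vegfa (ENSMUSG00000023951, chr17:46016993-46032369, minus strand) encodes the principal growth factor for endothelial cells. Its FPKM was 79.7 in WT against 51.6 in Postn-DTR, or 1.54-fold lower. From an estimated 3260 and 2184 reads, the 95% counting interval of that fold was 1.46 to 1.63. Here and below, intervals are exact Clopper-Pearson intervals that cover counting error only, since the reads carry no molecular identifiers and the animals were not replicated. The annotation holds 13 Vegfa transcripts, and its 5 RefSeq transcripts range from 654 to 3451 bases, so the level depends on the isoforms assumed.

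Vegfb (ENSMUSG00000024962, chr19:6982473-6987651, minus strand) encodes an FLT1 ligand that is abundant in fat and muscle. It had an FPKM of 56.5 in WT against 30.6 in Postn-DTR, and was 1.85-fold lower (95% counting interval 1.69 to 2.02). Its change of -0.86 was the most negative of the 9 genes, and 4.14% of all genes compared had a more negative one. Vegfb thus lay just short of a 2-fold difference. It passed it, at -1.20, when the acinar genes were left out and the totals made equal.

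Pgf (ENSMUSG00000004791, chr12:85166635-85177790, minus strand) encodes placental growth factor, a ligand associated with inflammation and injury. The level was an FPKM of 1.01 in WT against 3.43 in Postn-DTR, which is 3.40-fold higher. It rested on an estimated 32.4 reads in WT and 114 in Postn-DTR, with a 95% counting interval of 2.31 to 5.27 for the fold. Pgf was therefore the least precisely measured of the 9 genes, although the interval lay wholly above 2-fold in the FPKM as deposited. With the acinar genes left out and the totals made equal, the fold was 2.68 (1.82 to 4.15). The change was then 0.88, short of 2-fold. As deposited, the change of Pgf was 1.14 on the log2(FPKM + 1) scale. It dropped to 0.49 with a pseudocount of 5 and was 1.67 with a pseudocount of 0.1.

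Because the ligands moved apart, the make-up of the VEGF family differed between the libraries. The summed FPKM of Vegfa, Vegfb, Pgf, Vegfc and Figf (which encodes VEGF-D) was 172.6 in WT against 119.6 in Postn-DTR. Vegfa made up 46.2% of that sum in WT and 43.2% in Postn-DTR, and Vegfb 32.7% and 25.6%. The share of Pgf was 0.585% in WT and 2.87% in Postn-DTR. In percentage points the widest difference was that of Figf, at 15.5% and 23.5%, while Vegfc held 5.03% and 4.92%. The ratio of Vegfa to Pgf, which no scaling of a library alters, was 78.9 in WT against 15.0 in Postn-DTR. In contrast, the ratio of Vegfa to Vegfb was 1.41 and 1.69.

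Of the receptor genes of this family, Kdr and Flt1 were also below their WT levels. Kdr, the main signalling receptor for VEGFA, had an FPKM of 22.4 in WT against 13.6 in Postn-DTR (change -0.68). Flt1, the receptor for VEGFB and PGF, was at 11.4 and 8.88 (change -0.33). With equal totals Kdr just passed 2-fold lower. The Vegfa to Kdr ratio was 3.56 in WT against 3.80 in Postn-DTR. The ratios to Flt1 differed more, at 4.95 and 3.44 for Vegfb, and at 0.0885 and 0.386 for Pgf. Of the 6 listed VEGF receptors and other VEGF ligands, none differed 2-fold, and the median change was -0.37. Vegfc and Nrp2 were lower, with changes of -0.49 and -0.40. Figf and the lymphatic receptor gene Flt4 had changes of 0.06 and 0.21, which turned negative when the acinar genes were left out and the totals made equal.

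Nrp1 (ENSMUSG00000025810, chr8:128358604-128503363, plus strand) encodes neuropilin 1, which binds both VEGFA and class 3 semaphorins. Its FPKM was 32.4 in WT against 22.1 in Postn-DTR, 1.47-fold lower (95% counting interval 1.38 to 1.56, from an estimated 2554 and 1801 reads). The change of -0.53 was the median of the 9 genes. Among 11 neuropilin partner genes compared, 13 having been listed, none reached 2-fold on the log2(FPKM + 1) scale and the median change was -0.05. The semaphorin receptor gene Plxnd1 came nearest on that scale, with an FPKM of 34.8 in WT against 17.5 in Postn-DTR (change -0.95), and it passed 2-fold with equal 75th percentiles (-1.05) and equal totals (-1.28). The weaker Plxna3 was 2.30-fold lower in FPKM, at 2.06 and 0.899, and its change was -0.69, or -1.11 with a pseudocount of 0.1. The semaphorin genes went both ways, with Sema3c at 11.0 and 6.35 and Sema3g at 8.97 and 16.1.

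The angiopoietin genes differed in opposite directions. Angpt2 (ENSMUSG00000031465, chr8:18690263-18741562, minus strand) had an FPKM of 7.68 in WT against 17.4 in Postn-DTR. It was 2.27-fold higher, with a 95% counting interval of 2.06 to 2.50 from an estimated 599 and 1404 reads. Its change of 1.08 lay close to the 2-fold limit of 1, and 3.34% of all genes compared had a larger positive change. The change stayed positive under each of the 7 alternative pseudocounts, minimums and scalings tried, but was 0.76 with equal totals, 0.99 with equal 75th percentiles and 0.82 with a pseudocount of 5, all short of 2-fold.

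Angpt1 (ENSMUSG00000022309, chr15:42424723-42676977, minus strand) was weakly expressed, with an FPKM of 2.41 in WT against 1.54 in Postn-DTR. It was 1.56-fold lower (95% counting interval 1.27 to 1.94, from an estimated 227 and 150 reads). An antisense gene, Gm17473, overlaps Angpt1 in the annotation, and the strand setting of the counting was not given in the sources used here. The ratio of Angpt2 to Angpt1 within a library was 3.19 in WT against 11.3 in Postn-DTR, a 3.54-fold difference that no scaling of the libraries alters.

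**Figure D2:**
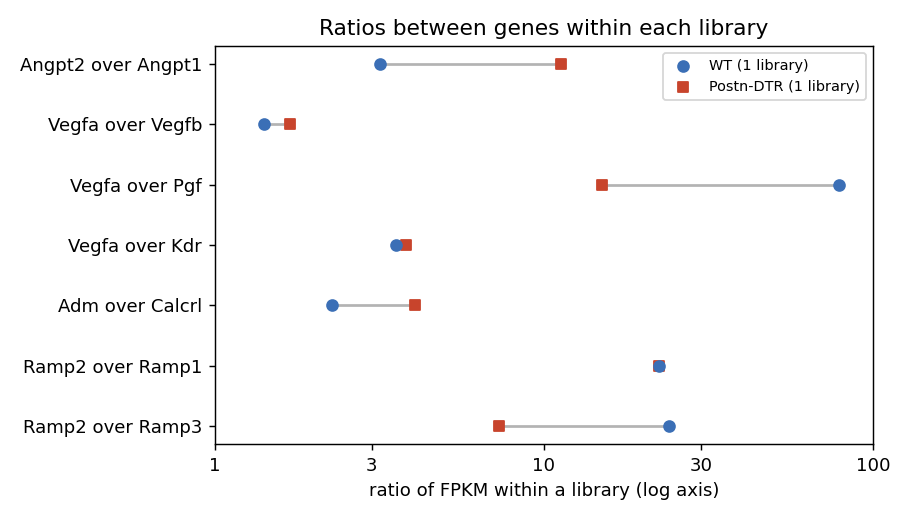
Ratios of FPKM between gene pairs within the WT library (blue circles) and the Postn-DTR library (red squares), on a log axis. The Angpt2 to Angpt1 ratio was 3.19 and 11.3, the Vegfa to Pgf ratio 78.9 and 15.0, and the Ramp2 to Ramp3 ratio 24.0 and 7.32, while the Vegfa to Kdr and Ramp2 to Ramp1 ratios were nearly the same in both.

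The shared receptor of the angiopoietins differed less than either ligand. Tek was at 8.96 in WT against 7.61 in Postn-DTR (change -0.21), and the related receptor gene Tie1 at 23.4 and 17.8 (change -0.38). Tek is made by endothelial cells and was also used in the study as a marker of P1 cells. Of 7 genes listed as angiopoietin receptors and related, none differed 2-fold and the median change was -0.21. Ptprb, which encodes a phosphatase that restrains TEK, had a change of 0.26, which turned negative with equal totals.

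The adrenomedullin axis showed lower receptor genes, and a ligand gene that was close to level in the FPKM as deposited but not with equal totals. Adm (ENSMUSG00000030790, chr7:110627661-110629820, plus strand) encodes the adrenomedullin precursor and was among the genes by which the study recognised P1 cells. Its FPKM was 14.2 in WT against 13.1 in Postn-DTR, a ratio of 0.922 with a 95% counting interval of 0.799 to 1.07. This interval, from the estimated 393 and 375 reads, holds 1 in the FPKM as deposited. It covers counting error only and is no test of a difference between the genotypes. With the acinar genes left out and totals made equal, the ratio was 0.726 (0.629 to 0.839) and the change -0.43, so whether Adm was level depends on the scaling. Of the other 6 P1 markers listed, Postn was at least 2-fold lower and Ptx3 at least 2-fold higher. Ptx3 had an FPKM of 1.40 in WT against 6.30 in Postn-DTR, and fell short of 2-fold, at 0.82, with a pseudocount of 5. Phex was under the expression minimum and so not called. It was lower, with an FPKM of 0.340 in WT against 0.0137 in Postn-DTR, from an estimated 47.8 and 1.99 reads. Aldh1a2 was at 85.5 and 63.3 (change -0.43), Tek had a change of -0.21, and Ace was at 46.5 and 56.9 (change 0.28, negative with equal totals). The study chose these markers in sorted cells, not in these libraries. It also cites earlier work in which omental mesothelial cells and fibroblasts expressed Aldh1a2. The level of Aldh1a2 in whole tissue thus need not be that of P1 cells alone.

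Calcrl (ENSMUSG00000059588, chr2:84330626-84425411, minus strand) encodes the receptor protein shared by adrenomedullin and calcitonin gene-related peptide (CGRP). It had an FPKM of 6.26 in WT against 3.23 in Postn-DTR. This was 1.94-fold lower (95% counting interval 1.70 to 2.21, from an estimated 680 and 363 reads), the largest fold among the lower members. Owing to the pseudocount its change was -0.78, and 5.19% of all genes compared had a more negative one. With equal totals it was -1.03, past 2-fold.

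Ramp2 (ENSMUSG00000001240, chr11:101246028-101259546, plus strand) encodes the accessory protein that turns CALCRL into an adrenomedullin receptor. Its FPKM was 85.8 in WT against 58.4 in Postn-DTR, or 1.47-fold lower (95% counting interval 1.37 to 1.57, from an estimated 1947 and 1372 reads). An exon of Ramp2 overlaps the gene Vps25 on the same strand, so some reads may have been divided between them. Ramp2 exceeded Calcrl in FPKM in both libraries, by 13.7 times in WT and 18.1 times in Postn-DTR.

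The accessory proteins set which peptide the receptor prefers, RAMP1 giving a CGRP receptor and RAMP3 a further adrenomedullin receptor. Ramp3 went against Ramp2, with an FPKM of 3.58 in WT against 7.98 in Postn-DTR and a change of 0.97, just short of 2-fold on that scale. Ramp1 was at 3.83 and 2.62 (change -0.42), in step with Ramp2. Ramp2 therefore made up 92.1% of the summed FPKM of the 3 genes in WT and 84.7% in Postn-DTR, whereas the share of Ramp3 was 3.84% and 11.6%. The ratio of Adm to Calcrl was 2.27 in WT against 4.06 in Postn-DTR.

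Of 10 other genes of the adrenomedullin and CGRP family, its processing and its clearance, 7 were compared, 1 was at least 2-fold lower and 1 at least 2-fold higher. They went both ways, with 4 lower and 3 higher and a median change of -0.19. No gene of the list was called either way with a pseudocount of 5, and 3 were called higher with a pseudocount of 0.1. Calca, which encodes calcitonin and CGRP, had an FPKM of 0.873 in WT against 6.10 in Postn-DTR, 6.99-fold higher. Its WT level rested on an estimated 14.4 reads, and the 95% counting interval was 4.09 to 13.6. Mme, which encodes the peptidase neprilysin, was 4.72-fold lower, at 6.39 in WT against 1.35 in Postn-DTR. Ackr3, which encodes a scavenging receptor for CXCL12 that also takes up adrenomedullin, had an FPKM of 16.8 in WT against 33.9 in Postn-DTR (change 0.97). Pam, the enzyme that amidates the peptide, was at 60.5 and 53.1.

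**Figure D3:**
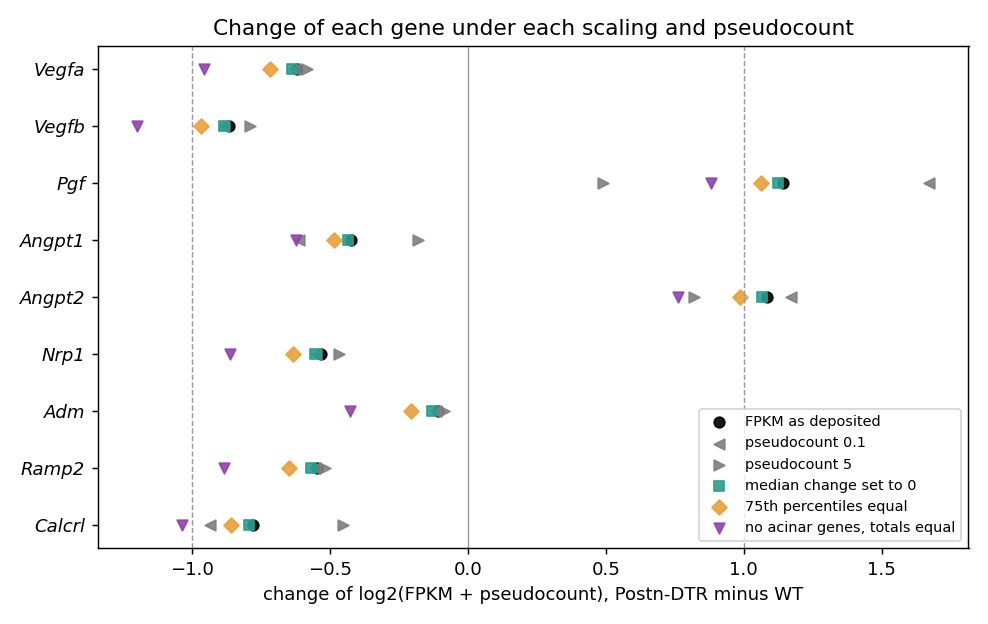
Change of each of the 9 genes, Postn-DTR minus WT, as log2(FPKM + pseudocount) for the FPKM as deposited (black circles, pseudocount 1), 2 other pseudocounts (grey triangles) and 3 scalings (coloured symbols), with dashed lines at 2-fold. No gene changes side of 0, whereas Pgf and Angpt2 fall short of 2-fold under some settings, and Vegfb and Calcrl pass it with equal totals.

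Genes around the ligands and receptors were counted from lists written for their known roles. Over all these lists, with each gene counted once, 85 of 93 genes were compared, 4 were at least 2-fold lower and 8 at least 2-fold higher, and the median change was -0.14. The shares over all genes compared were 3.12% lower and 3.88% higher. Among 16 other angiogenic growth factors and inhibitors compared, 2 were lower and 3 higher. Aplnr, the receptor gene for apelin, was 8.56-fold lower, at 15.8 in WT against 1.85 in Postn-DTR, and the gene of its ligand, Apln, was at 28.3 and 17.4. Cxcl12, a chemokine gene of vessels and stroma, was 2.59-fold lower, at 180 and 69.5. Thbs1, which encodes the angiogenesis inhibitor thrombospondin 1, was 8.70-fold higher, at 21.8 in WT against 190 in Postn-DTR. Ctgf, a matricellular growth factor gene, was at 18.2 and 88.2, and the matrix protein gene Ecm1 at 268 and 739.

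Genes of sprouting tip cells and Notch signalling, the programme that VEGFA drives in endothelium, held no 2-fold difference among 12 compared, with a median change of -0.27. The tip cell genes Esm1 and Nid2 had changes of -0.76 and -0.80, which passed 2-fold with equal totals (-1.03 and -1.13), and Dll4, the Notch ligand gene of tip cells, had a change of 0.03 that turned negative with equal totals. Cxcr4, which leukocytes express too, had a change of 0.80.

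Vegfa and Adm are known targets of hypoxia-inducible factors, and 17 other target genes were therefore listed, all of which were compared. None was at least 2-fold lower, 3 were at least 2-fold higher, and the median change was 0.17. The 3 were Ddit4, an inhibitor gene of mTOR signalling, at 34.7 in WT against 172 in Postn-DTR, Hilpda, a lipid droplet protein gene, at 8.11 and 37.2, and Bnip3, a mitophagy gene, at 83.8 and 202. Vegfa and Adm, with changes of -0.62 and -0.11, were not among the higher genes. With equal totals Bnip3 fell short of 2-fold, at 0.92, P4ha1, a collagen hydroxylase gene, passed 2-fold lower at -1.02, and the median of the list was -0.15. The glycolytic targets Ldha and Pgk1 had changes of -0.39 and 0.20, that of Pgk1 turning negative with equal totals. Of the 6 genes of the factors and their regulators, none reached 2-fold on the log2(FPKM + 1) scale. Hif1a was at 17.4 and 21.7 (change 0.31, negative with equal totals), Epas1, the form abundant in endothelium and fat, at 83.7 and 66.3, and Hif3a at 1.68 and 4.33. Hif3a was 2.57-fold higher in FPKM, with a change of 0.99 that was 1.31 with a pseudocount of 0.1.

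**Figure D4:**
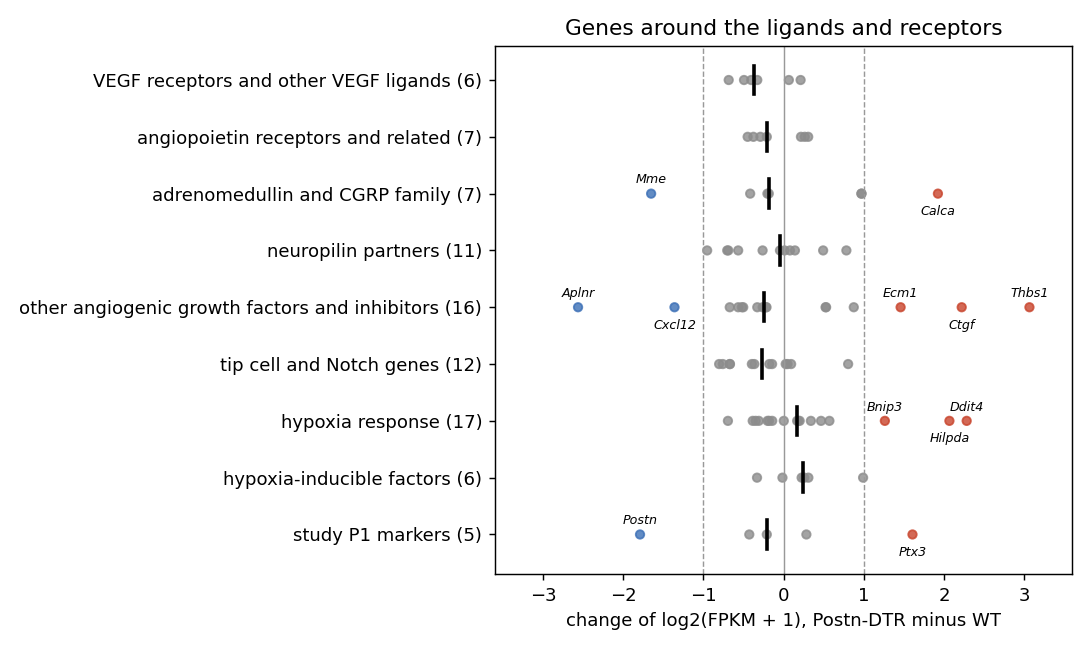
Difference in log2(FPKM + 1), as Postn-DTR minus WT, for each gene compared in the lists around the 9 genes, with the number compared in parentheses, black bars at the list medians and dashed lines at 2-fold. Genes at least 2-fold lower (blue) or higher (red) are named. The list medians lie between -0.37 and 0.24.

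In whole tissue, fewer cells of a type and less RNA per cell cannot be told apart, so markers of the cell types that make or sense these factors were read alongside. Endothelial markers were close to level in the FPKM as deposited. Of 16 compared, none reached 2-fold on the log2(FPKM + 1) scale, 8 were lower and 8 higher, none was at 0, and the median change was -0.06. Their summed FPKM was 590 in WT against 565 in Postn-DTR. With equal totals 3 were at least 2-fold lower and the median was -0.40, and with equal 75th percentiles 1 was lower and the median was -0.16. Among these markers, Pecam1 was at 109 and 110, and Cdh5 at 46.5 and 42.4. The list includes Kdr and Tie1, which are also counted above.

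Relative to that endothelial sum, the 9 genes kept their directions. On the log2 scale, without a pseudocount, Vegfa was lower by a difference of -0.56, Nrp1 of -0.49, Ramp2 of -0.49 and Calcrl of -0.89. The sum was close to level, at 590 in WT against 565 in Postn-DTR, so dividing by it could alter these differences little. Its genes were not uniform, with changes from -0.91 for Clec14a to 0.48 for Cldn5. The part of endothelial cells in the levels of Calcrl, Ramp2 and Nrp1 was not tested. Angpt2 was higher by 1.24 and Pgf by 1.83. Adm differed by -0.05, and by 0.02 when Cdh5 alone was the denominator.

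Markers of pericytes and smooth muscle, the cells that wrap vessels and are a source of Angpt1, were lower. All 10 were compared, of which 8 were lower and 3 at least 2-fold so, and none was at 0. With equal totals 6 were at least 2-fold lower. The median change was -0.73 and the summed FPKM 526 in WT against 418 in Postn-DTR. The 3 called lower on the log2(FPKM + 1) scale were Rgs5 at 30.6 and 2.56, Notch3 at 21.3 and 3.53, and Pdgfrb at 41.3 and 17.3. Other pericyte genes differed less, with changes of -0.90 for Cspg4 and -0.15 for Kcnj8. Contractile genes went both ways, with changes of 0.20 for Acta2, 0.24 for Tagln and -0.78 for Myh11. Mcam and Des had changes of -0.63 and -0.67. Relative to the sum of this list, Angpt1 differed by -0.31 on the log2 scale. It differed by 0.61 relative to Pdgfrb and by 2.94 relative to Rgs5, but these 2 denominators were chosen after their values were seen. Both were lower by a larger fold than Angpt1, so a positive difference was fixed in advance and says nothing about Angpt1. The part of these markers in the level of Angpt1 was not tested.

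Adipocytes and macrophages, both known sources of Vegfa, gave opposite readings. Of 9 adipocyte markers compared, 7 were lower and Pparg at least 2-fold so, with a median change of -0.55 and a summed FPKM of 15732 in WT against 14740 in Postn-DTR (3 at least 2-fold lower with equal totals). All 10 macrophage markers were higher and 4 at least 2-fold so, with a median change of 0.96 and a summed FPKM of 5042 and 8884. No marker of either list was at 0. All 5 neutrophil markers compared were also higher (median 1.10, summed FPKM 335 and 615), and all 8 B and T cell markers were lower (median -1.04, summed FPKM 360 and 248). Among 8 fibroblast markers, Dpt was at least 2-fold lower and the median change was -0.31 (summed FPKM 4325 and 3710), and among 6 mesothelial markers Lrrn4 was at least 2-fold lower and the median was 0.30 (507 and 549). The 4 lymphatic endothelial markers compared had a median of 0.17. All 3 erythrocyte markers compared, of 5 listed, were at least 2-fold higher (median 1.55, summed FPKM 275 and 838.5). The part of any of these lists in the levels of the 9 genes was not tested.

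**Figure D5:**
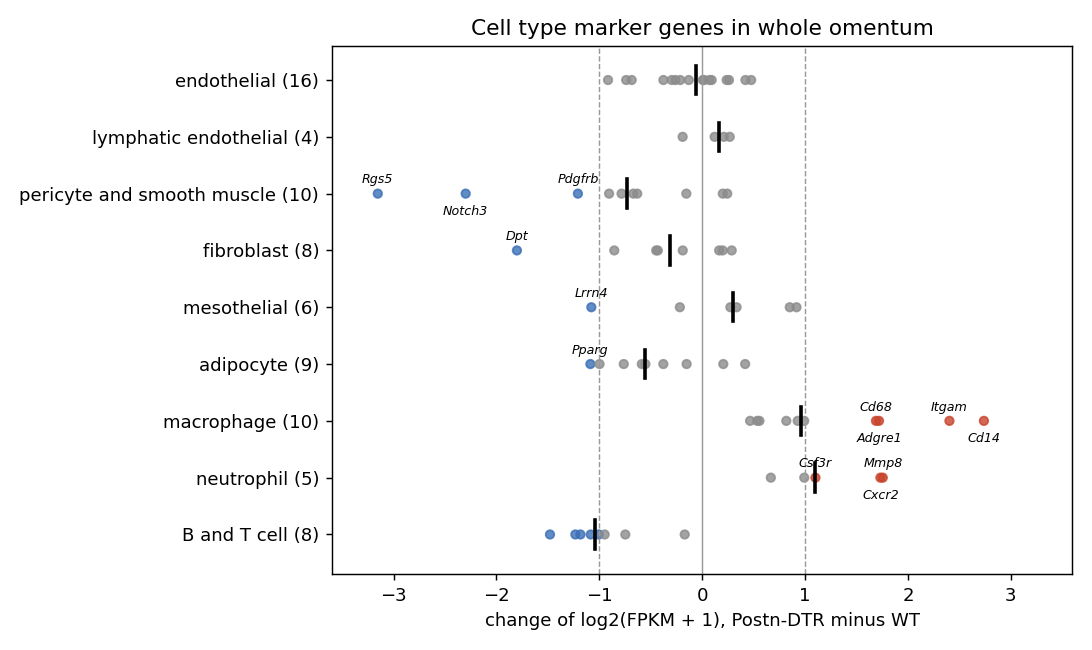
Difference in log2(FPKM + 1), as Postn-DTR minus WT, for cell type marker genes compared, with the number compared in parentheses, black bars at the list medians and dashed lines at 2-fold. Endothelial markers centre on -0.06, pericyte and smooth muscle markers on -0.73 and macrophage markers on 0.96. Genes past 2-fold are coloured, and named where a list holds at most 4 of them. Pancreatic acinar and erythrocyte genes are not drawn.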

How the data were processed

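RNA-seq libraries from whole omentum, 1 of WT and 1 of Postn-DTR mice, were grouped by their genotype labels. Per the labels, RNA came from a miRNeasy extraction and went into TruSeq stranded mRNA libraries. The authors deposited FPKM per gene symbol. The submitters' processing notes name TopHat2 2.1.1, Bowtie2 2.2.8, SAMtools 0.1.18, Cuffdiff 2.2.1 and mm10. The annotation and the strand setting were not given in the sources used here.

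Changes were computed as log2(FPKM + 1), Postn-DTR minus WT, over genes whose FPKM averaged 1 or more over both libraries, and a gene was called at 2-fold on that scale. Fold values of single genes are ratios of FPKM without the pseudocount. Positions are from GENCODE M21 (GRCm38), which is the same assembly as mm10, and promoters from RefSeq. Read numbers were estimated from the step between low FPKM values and annotated lengths, with 200 bases taken off each length. Of 1112 low values, 68.0% were within 0.05 of a whole read, so the read numbers are approximate. The scripts were tested on simulated data. Python 3.11.15, pandas 2.3.3 and SciPy 1.17.1 were used.

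The members and gene lists were chosen with earlier results of these data known. All 9 members were named, with list genes that reached 2-fold and those needed to describe receptors, hypoxia-inducible factors and endothelium. Some lists share genes, and 1 gene was taken out of the adrenomedullin list and its counts and is not reported here. Alternatives were other pseudocounts, expression minimums, scalings, fold limits and endothelial denominators.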

Additional observations from a re-analysis of the deposited data

How the results depend on the processing

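No member changed direction under any alternative pseudocount, minimum, scaling or fold limit, and only Adm did among the endothelial denominators (0.02 over Cdh5, -0.12 over Pecam1). The number of members at least 2-fold higher, 2 as reported, was 0 with a pseudocount of 5, 1 when genes had to average an FPKM of 10 (which left 6 members), 1 with equal 75th percentiles, 0 with the acinar genes left out and totals made equal, and 0 at a 3-fold limit. The number lower, 0 as reported, was 2 with equal totals and 3 at a 1.5-fold limit. The median change of the members was -0.86 with equal totals and between -0.63 and -0.45 otherwise. Among all genes compared, the lower and higher counts were 410 and 509 as reported, 732 and 293 with equal totals, 643 and 642 with the pseudocount set to 0.1, 168 and 287 with it set to 5, 173 and 303 for genes averaging an FPKM of 10, 1160 and 1294 at 1.5-fold, and 153 and 199 at 3-fold. The higher genes were 55.4% of those counted as reported and 28.6% with equal totals. What makes the totals differ was not tested. No paired analysis was possible because each genotype had 1 library. Depth limits Pgf and Angpt1 most.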
